A study of Mus musculus with 40 samples.

Results

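The transcriptional response of the aorta to angiotensin II (Ang-II) was examined in mice whose smooth muscle cells had been made to lose calcineurin (Cn). Aortas taken 6 h after the start of Ang-II infusion were compared with untreated aortas of the same genotype, SM-Cn-/-. The libraries were chosen by their labels of genotype, treatment and time: 6 libraries, 3 per group, out of 40 in the series and 22 in the genotype experiment. All 14424 protein-coding genes of that experiment's table were tested. SM-Cn-/- mice were males with floxed alleles of Ppp3r1, which encodes the calcineurin regulatory subunit CnB1, and a tamoxifen-inducible CreERT2 driven by the Myh11 promoter, which is active in smooth muscle. Per the labels, the Cn-Ctl mice of all libraries carried the floxed alleles without Cre. The study's methods also count mice with Myh11-CreERT2 and wild-type alleles as Cn-Ctl, and whether any entered these pools is not given in the labels. Both genotypes received 1 mg of tamoxifen daily for 5 days at 10 to 12 weeks of age and were used 6 weeks later. Ang-II was delivered at 1 µg/kg/min by osmotic minipump, and per the study's methods SM-Cn-/- mice in which the deletion could not be verified were removed. Pumps were implanted under isoflurane anaesthesia, and pressure was read by tail cuff in restrained mice. The methods describe control mice as operated on without a pump. When the untreated mice of these libraries had surgery before harvest is not given. The part of surgery and handling in the 6 h values was not tested. Each library pooled 3 aortas that had been cleared of adventitia and perivascular tissue. Per the study's methods, treated Cn-Ctl mice entered a pool only if their systolic pressure exceeded 130 mmHg. All SM-Cn-/- mice treated in parallel were kept, since none of them had a raised pressure. Readings are described at 2 h and 24 h of infusion, and how the 6 h mice were selected is not given. Genotype, pressure and selection by pressure therefore cannot be told apart in any comparison between the genotypes. Cells other than smooth muscle kept their calcineurin in SM-Cn-/- mice.

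Calcineurin is a calcium- and calmodulin-dependent protein phosphatase made of a catalytic A subunit (Ppp3ca, Ppp3cb or Ppp3cc) and a regulatory B subunit. Without the B subunit the enzyme is inactive, and its best known substrates are the NFAT transcription factors. Ang-II acts on smooth muscle through the AT1 receptor, a G protein-coupled receptor that raises cytosolic calcium and activates protein kinase C and MAP kinases, and its early transcriptional targets in cultured cells include the immediate early genes. An infusion also reaches the whole animal, including the adrenal gland, and the aorta carries receptors for steroid hormones.

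The signal analysed is the number of reads of a gene, plus 0.5, divided by the scaled library size in M (megareads). Read totals ran from 2.73 to 10.25 M over the 22 libraries of the table. Among the 6 compared here, the untreated libraries held 6.47, 3.60 and 4.17 M reads and the 6 h libraries 7.57, 6.84 and 2.73 M. The share of genes with 0 reads was 3.64%, 9.53% and 12.8% in 6 h replicates 1, 2 and 3, against 7.30 to 8.76% in the untreated libraries, so 6 h replicate 3 was the shallowest and had the most genes without reads. On the first principal component of the 22 libraries (19.0% of the variance), 6 h replicate 1 lay at −24.5 and replicates 2 and 3 at 36.6 and 64.5. The floxed gene itself could not serve as a check of the labels. Ppp3r1 had a signal of 83.5, 69.5 and 48.9 in the untreated and 82.5, 41.8 and 45.3 in the 6 h SM-Cn-/- libraries, and 104 and 78.8 in the untreated Cn-Ctl libraries. A value per gene says nothing of which exons it came from, other cell types keep the intact gene, and an exon of Ppp3r1 overlaps Wdr92 on the same strand by 185 bases. Smooth muscle identity of the tissue was clear: the summed signal of 10 smooth muscle markers was 24590 to 28680 in the untreated and 27530 to 33830 in the 6 h libraries, and none of the 10 was called in the limma fit (2 at an unadjusted p under 0.05, 0 by edgeR and 0 by DESeq2). Acta2, smooth muscle actin, had log2 fold change 0.05 and Myh11, smooth muscle myosin, 0.01.

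Of the 14424 genes, 338 (2.34%) passed an adjusted p of 0.05 in the limma fit, 216 higher at 6 h (1.5%) and 122 lower (0.846%). The largest consistent rises were in metallothioneins and other genes that respond to glucocorticoids, in Hspb1 and in Angptl7, and the firmest falls were in Rgs4, Cacna1c and Lrrc17. The median log2 fold change was 1.17 among the higher genes and −1.33 among the lower genes, beside −0.03 over all genes, and 236 of the 338 changed more than 2-fold, 143 upward and 93 downward (1.64% of all genes). The 3 libraries of each group did not overlap for 215 of the 216 higher and 121 of the 122 lower genes. Over all genes tested, non-overlap was seen for 10.1% upward and 8.76% downward. The largest fitted rise, a log2 fold change of 4.13, belonged to Plac9a, the gene whose libraries overlapped, with a mean signal of 6.33 ± 10.8 (SD, n = 3) untreated and 46.3 ± 46.1 (SD, n = 3) at 6 h. Plac9a is named because of its rank and lies outside the naming rule, and its reads can be shared with a near-identical copy.

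**Figure D1:**
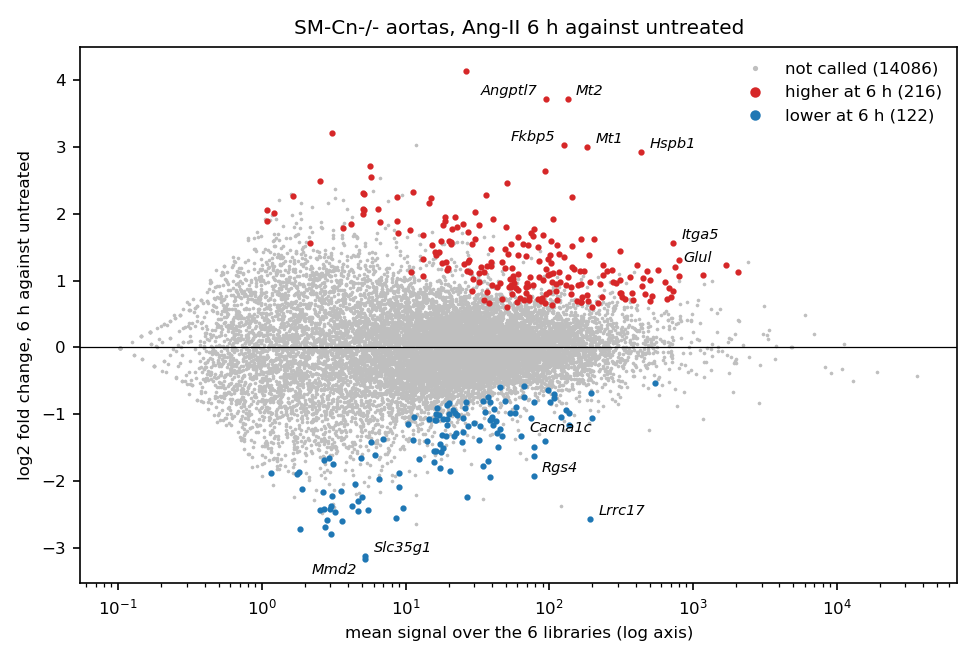
Mean signal over the 6 SM-Cn-/- libraries (log axis) against the log2 fold change at 6 h for all 14424 genes tested, with the 216 genes called higher in red, the 122 called lower in blue and the rest in grey. The lower genes with the largest changes, such as Mmd2 and Slc35g1, lie at low signal, whereas Mt2, Mt1, Fkbp5 and Hspb1 lie at mean signals over 100.

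The higher genes were more firmly measured than the lower ones. Before infusion their median signal was 40.5, against 27.1 for the lower genes and 18.3 for all genes. Relative to the untreated mean, the higher genes lay at a median log2 difference of 1.17, 1.25 and 1.12 in 6 h replicates 1, 2 and 3. For the lower genes the medians were −0.99, −1.39 and −1.67, so 6 h replicate 1, the deepest of the 3, showed the smallest decrease. There were 25 lower genes with 0 reads in at least 1 of the 6 libraries, 21 of them in 6 h replicate 3, as against 10 of the higher genes. Leaving out each of the 6 libraries in turn, 64 of the higher genes (29.6%) and 14 of the lower genes (11.5%) were called every time. The number called was 219, 372 and 112 without untreated replicate 1, 2 or 3, and 449, 116 and 225 without 6 h replicate 1, 2 or 3. A fit to the 6 libraries alone, which has few degrees of freedom, called 119 genes, 99 higher and 20 lower.

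Of the gene lists described here, the glucocorticoid response had the largest share of called members. The lists and their members were chosen with earlier results of these data known, so this rank is no independent evidence. Glucocorticoids act through the nuclear receptor Nr3c1, which binds DNA and raises a well known set of targets within hours in most tissues. Of 27 measured genes on the list, 15 were called higher at 6 h and none lower, beside 1.5% and 0.846% of all genes. The median log2 fold change was 1.26, and 23 of the 27 values were positive, beside 47.4% of all genes. At an unadjusted p under 0.05, 21 members were higher and 1 was lower. Over the fits that left out a library 11 to 15 members were called, 11 of them every time, and over the other alternatives 13 to 18. The lowest count, 11, was found without untreated replicate 3 and without 6 h replicate 2. For 19 of the 27 all 6 h libraries lay above all untreated ones, beside 10.1% of all genes tested. The list overlaps with others, since the metallothioneins also respond to metals and Errfi1, Cebpd and Per1 to growth factor, cytokine and cAMP signals.

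The metallothioneins Mt2 and Mt1, small cysteine-rich proteins that bind zinc and copper, gave the largest rises on the list together with Fkbp5. Mt2 had a signal of 14.0, 23.1 and 17.9 in the untreated libraries and 169.5, 312 and 268 at 6 h. It rose 13.2-fold, a log2 fold change of 3.72 ± 0.32 (SE) with adjusted p = 1.36e-06 (limma). Mt1 had a signal of 32.9, 55.8 and 33.6 untreated and 230.3, 427 and 327 at 6 h. It rose 7.96-fold, with a log2 fold change of 2.99 ± 0.30 (SE) and adjusted p = 6.92e-06 (limma). For both genes the lowest 6 h library was replicate 1, and the groups were separated by a wide gap. An exon of Mt2 overlaps the antisense gene Gm45774 by 212 bases, and whether reads were counted by strand is not given in the sources used here.

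Both metallothionein genes lie side by side on chromosome 8. Their promoters are shown because both genes rose together, and because short motifs bound by the zinc-sensing factor MTF1 are known in this gene family. The sequences are those of RefSeq for GRCm38.p6 and cover the 250 bases before the annotated start, on the plus strand, at chr8:94172368-94172617 for Mt2 and chr8:94178839-94179088 for Mt1. Capitals mark the metal response core, TGCACNC or TGCGCNC, searched on both strands.
Mt2: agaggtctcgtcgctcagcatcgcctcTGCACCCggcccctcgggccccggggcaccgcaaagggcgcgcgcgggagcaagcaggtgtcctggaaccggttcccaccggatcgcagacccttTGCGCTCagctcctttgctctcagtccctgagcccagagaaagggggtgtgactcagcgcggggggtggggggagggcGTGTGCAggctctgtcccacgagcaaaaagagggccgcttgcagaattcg
Mt1: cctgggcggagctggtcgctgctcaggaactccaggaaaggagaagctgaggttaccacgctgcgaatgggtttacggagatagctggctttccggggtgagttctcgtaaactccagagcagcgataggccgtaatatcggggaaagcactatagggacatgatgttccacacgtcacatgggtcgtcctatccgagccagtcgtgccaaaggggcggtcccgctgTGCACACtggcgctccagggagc
The Mt2 window held 3 matches and the Mt1 window 1. Only these windows were searched, so the counts depend on the annotated start and leave out any match beyond it. They do not show that the promoters of the genes differ. At least 1 match was found in 21.4% of all 32851 promoters of the same length in the table and 3 or more in 1.26%. Among the genes called higher, 31.7% of the promoters held a match, beside 28.3% for all genes tested. The palindrome ACANNNTGT, the inner part of the glucocorticoid receptor motif, was present once in the Mt1 window and in 5.84% of all promoters, 3.97% of those of the genes tested and 7.41% of those of the genes called higher. A match is a run of letters and not a shown binding site.

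Fkbp5, a co-chaperone of the steroid receptors and among the most used markers of glucocorticoid action, had a signal of 22.5, 42.5 and 18.3 in untreated and 250.7, 287 and 139 in 6 h libraries. It rose 8.15-fold (log2 fold change 3.03 ± 0.28 SE, adjusted p = 2.26e-06, limma). Map3k6, a kinase of the MAP kinase cascade, had a signal of 11.3, 24.6 and 12.2 untreated and 69.8, 103 and 84.5 at 6 h. It rose 5.48-fold (log2 fold change 2.45 ± 0.27 SE, adjusted p = 1.97e-05, limma). Arrdc2, an arrestin-domain protein, went from 17.7, 43.0 and 20.1 to 120, 188 and 173 and rose 6.23-fold. In each of these genes untreated replicate 2 was the highest of its group and still lay well below the lowest 6 h library.

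The other called members of the list are given for completeness, several of them outside the naming rule. Tsc22d3 (GILZ), a glucocorticoid-induced inhibitor of inflammatory signalling, had a signal of 77.1, 56.3 and 27.1 untreated and 271.5, 230.7 and 204.9 at 6 h, with a log2 fold change of 2.24. Smaller rises were measured for Ddit4, an inhibitor of mTORC1 (1.80), Zbtb16, a zinc finger repressor (1.78), Cebpd, a transcription factor of the acute phase (1.595), Errfi1, a feedback inhibitor of the EGF receptor (1.38), and Per1, a clock component with a glucocorticoid-responsive promoter (1.32). Sult1a1, a sulfotransferase (1.26), Glul, glutamine synthetase (1.21), Sgk1, a kinase that regulates ion transport (1.08), and Klf9, a Krüppel-like factor (1.05, at the threshold), completed the list. Zbtb16 and Klf9 lost their calls in 4 of the 6 fits that left out a library, and Sgk1 in 3. Klf15, a further Krüppel-like factor that is a known glucocorticoid target but was not put on the list, had a signal of 34.7, 55.0 and 24.1 untreated and 95.0, 115.9 and 105 at 6 h (log2 fold change 1.54). It was singled out after its values were seen.

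**Figure D2:**
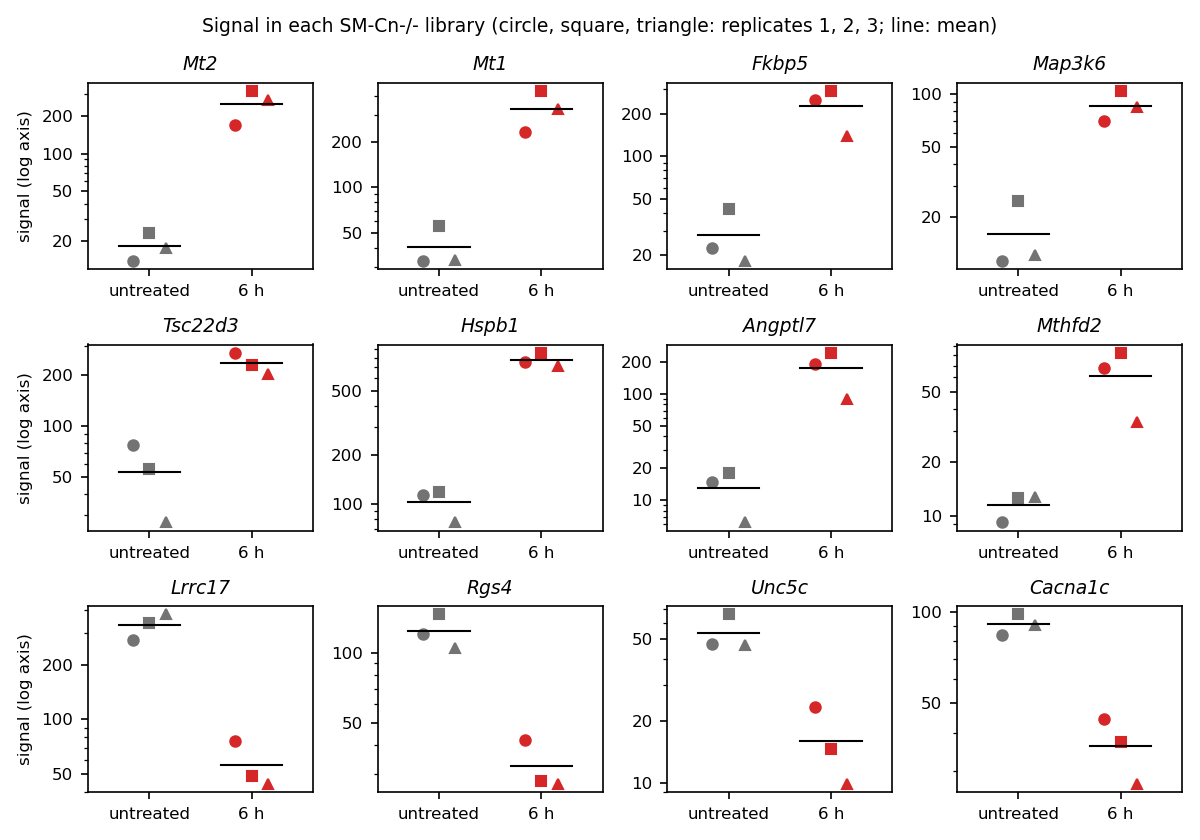
Signal (log axis) of 12 genes in each of the 3 untreated (grey) and 3 Ang-II 6 h (red) SM-Cn-/- libraries, with circle, square and triangle for replicates 1, 2 and 3 and a line for the mean. In the upper 8 panels every 6 h library lies above every untreated library, and in the 4 lower panels every 6 h library lies below, with replicate 1 the least changed of the 3 in each of those.

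Among 20 heat shock proteins and chaperones, 4 were called higher and none lower, beside 1.5% and 0.846% of all genes. The median log2 fold change of the list was 0.27. Hspb1, the small heat shock protein HSP27 that binds actin and protects cells from proteotoxic stress, stood apart. Its signal was 113, 118 and 76.7 untreated and 748, 854 and 711 at 6 h. It rose 7.60-fold (log2 fold change 2.93 ± 0.31 SE, adjusted p = 1.37e-05, limma), and the 3 libraries at 6 h were within a narrow range. The other called members were the constitutive chaperone Hspa8 (1.12), Hsp90aa1 (0.84) and the small heat shock protein Hspb8 (0.61). Each of these lost its call without untreated replicate 3, where the log2 fold changes were 0.83, 0.67 and 0.53, and without 6 h replicate 2 (1.14, 0.76 and 0.55). Without untreated replicate 1 or 6 h replicate 3 the call was also lost for Hsp90aa1 (0.85 and 0.78), as it was for Hspb8 without 6 h replicate 1 (0.57). The number of chaperones called ran from 1 to 5 over the fits that left out a library. Untreated libraries differed on this list: their medians lay at 0.39, 0.01 and −0.40 relative to their mean, so that replicate 1 lay above the 3 libraries at 6 h (0.31, 0.31 and 0.25).

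The promoter of Hspb1 (RefSeq, GRCm38.p6, plus strand, chr5:135887669-135887918, 250 bases before the start) is shown because the heat shock factor binds inverted repeats of the unit GAA and Hspb1 was the most changed of the chaperones. Capitals mark the inverted pairs GAANNTTC or TTCNNGAA.
Hspb1: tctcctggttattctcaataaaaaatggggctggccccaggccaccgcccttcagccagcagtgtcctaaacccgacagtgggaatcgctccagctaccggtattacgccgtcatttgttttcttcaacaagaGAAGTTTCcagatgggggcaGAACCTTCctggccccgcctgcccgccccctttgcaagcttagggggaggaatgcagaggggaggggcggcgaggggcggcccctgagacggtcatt
The 2 pairs began 117 and 97 bases before the start. At least 1 pair was present in 12.8% of all promoters of this length, in 10.3% of those of the genes tested and in 9.05% of those of the genes called higher.

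Other genes among the 15 largest rises had varied roles. Angptl7, a secreted angiopoietin-like protein, had a signal of 15.01, 18.0 and 6.18 untreated and 192, 245 and 90.7 at 6 h and rose 13.1-fold (log2 fold change 3.71 ± 0.52 SE, adjusted p = 3.14e-04, limma). Mthfd2, the mitochondrial enzyme of one-carbon folate metabolism, had a signal of 9.18, 12.6 and 12.7 untreated and 68.1, 82.3 and 33.8 at 6 h and rose 4.88-fold (log2 fold change 2.29 ± 0.31 SE, adjusted p = 2.47e-04, limma). The 6 h libraries of both genes lay far above the untreated ones, with replicate 3 the lowest. Slc10a6, a transporter of sulfated steroids, rose by a log2 fold change of 2.33, Vwce, a secreted protein with von Willebrand factor C domains, by 2.72, and Plekha7, an adherens junction protein, by 2.25. Mal, a membrane raft proteolipid, rose by 2.30 and A730049H05Rik by 2.31. Vwce, Slc10a6, Mal and Plekha7 each had an untreated library below a signal of 3. Slc10a6 lost its call without untreated replicate 3 (2.08), A730049H05Rik without untreated replicate 3 (1.79) or 6 h replicate 2 (2.01), and Plekha7 without untreated replicate 2 (1.59) or 6 h replicate 2 or 3 (1.99 and 2.00). Mal kept its call in 1 of the 6 fits, and its log2 fold change was 1.56 without untreated replicate 2.

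The remaining genes among the 15 largest rises are uncertain in their identity. Gm44503 was at 0 reads in every untreated library and had a signal of 6.57, 9.67 and 1.91 at 6 h. Against a floor of 3 reads per untreated library its mean was at least 9.62-fold higher. Its exons overlap those of Ccpg1 by 1397 bases and of Dyx1c1 by 226 bases on the same strand and those of Pigb by 964 bases on the opposite strand. Gm9817 (log2 fold change 2.54) overlaps Hsp25-ps1, a processed pseudogene of the small heat shock protein, on the opposite strand over 436 bases, so its reads and those of Hspb1 cannot be told apart with certainty. It lost its call without untreated replicate 3 (2.37) or 6 h replicate 2 (2.17). A730049H05Rik overlaps Adamts9 on the opposite strand over 1215 bases.

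Immediate early genes, which encode transcription factors such as Fos and Egr1 and are induced within minutes of receptor activation, showed a single call. Of 29 measured, Maff alone was called, beside 2.34% of all genes. Maff, a small Maf transcription factor, had a signal of 19.9, 18.2 and 10.9 untreated and 75.3, 80.9 and 38.0 at 6 h (log2 fold change 1.92 ± 0.29 SE, adjusted p = 6.21e-04, limma). It was called in all 16 alternatives. The list had 3 higher members without untreated replicate 2, 2 without untreated replicate 1, and 1 lower member without 6 h replicate 1. The median of the list was 0.54, 22 of the 29 values were positive, and 12 were higher at an unadjusted p under 0.05. For 11 of the 29 genes the 6 h libraries lay above all untreated ones, beside 10.1% of all genes tested. The log2 fold changes of the genes not called lay between −1.37 and 1.04. Fos had a signal of 12.8, 21.1 and 19.0 untreated and 19.6, 14.4 and 17.5 at 6 h, and Egr1 56.5, 70.3 and 115.8 untreated and 154.4, 82.5 and 57.8 at 6 h, with overlapping groups in both.

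Genes of the actin cytoskeleton and focal adhesions had 4 of 30 members called higher and none lower, beside 1.5% and 0.846% of all genes. The median log2 fold change was 0.45, and 28 values were positive, beside 47.4% of all genes. Itga5, the fibronectin receptor subunit α5, had a signal of 382, 431 and 295 untreated and 1076, 1277 and 910.0 at 6 h (log2 fold change 1.56 ± 0.32 SE, adjusted p = 0.012, limma). Actn4, an actin cross-linker, rose by 1.08, Zyx, zyxin of the focal adhesion, by 1.00, and Tln1, talin that couples integrins to actin, by 0.82. Between 1 and 5 members were called when a library was left out. Actn4 was called each time, Itga5 and Zyx lost the call without untreated replicate 3 (1.41 and 0.87) or 6 h replicate 2 (1.44 and 1.00), and Tln1 lost it without untreated replicate 1 or 3 (0.80 and 0.81) or 6 h replicate 1 or 2 (0.77 and 0.70). Exons of Actn4, Zyx and Tln1 overlap those of Capn12, Epha1 and Creb3 on the opposite strand. Of the smooth muscle contraction genes, 0 of 23 were called (5 higher at an unadjusted p under 0.05, none by edgeR or DESeq2), with a median of 0.26.

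Among collagens, elastin and their cross-linking enzymes, 3 of 26 were called higher, beside 1.5% of all genes. These were Col18a1, a basement membrane collagen (1.06), Loxl3, a lysyl oxidase (0.82), and P4ha2, a prolyl hydroxylase of collagen (0.72), and the median of the list was 0.15. All 3 lost their calls without untreated replicate 3 (1.03, 0.82 and 0.72) and without 6 h replicate 2 (0.99, 0.78 and 0.65), and Col18a1 and Loxl3 also without untreated replicate 1 (1.01 and 0.70). None of 30 matricellular, hyaluronan and protease genes passed the limma threshold, with a median of 0.04, 4 higher at an unadjusted p under 0.05, and none called by edgeR or DESeq2.

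**Figure D3:**
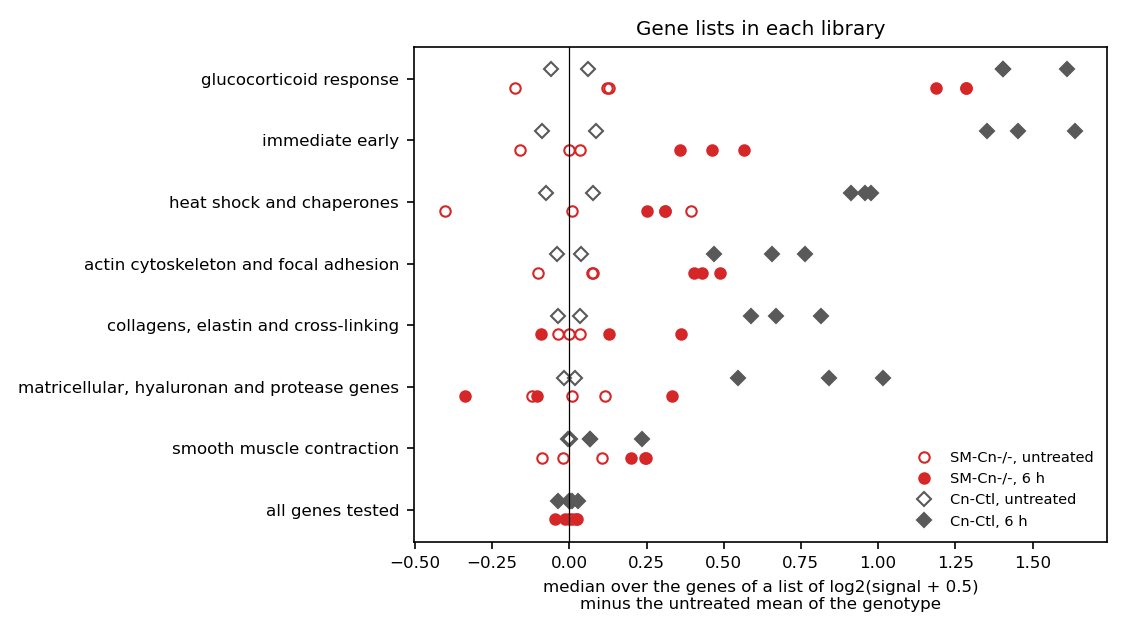
Median over the genes of each list of log2(signal + 0.5) minus the untreated mean of the same genotype, with 1 point per library (circles, SM-Cn-/-; diamonds, Cn-Ctl; open, untreated; filled, Ang-II 6 h). The 3 SM-Cn-/- libraries at 6 h lie at 1.19 to 1.28 for the glucocorticoid list, at 0.36 to 0.56 for the immediate early list, and on both sides of 0 for the matricellular list (−0.34 to 0.33).

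In the lists of inflammation and vasomotor signalling, single genes passed the test, beside 1.5% of all genes called higher and 0.846% called lower. Ptgis, prostacyclin synthase, had a signal of 338, 423 and 306 untreated and 793, 787 and 774 at 6 h (log2 fold change 1.15 ± 0.20 SE, adjusted p = 0.00283, limma), and Csf1, the macrophage growth factor, rose by 1.05. Both were called in all 6 fits that left out a library. Cxcl12, a chemokine, was lower by 1.06 on the log2 scale but was called in none of those 6 fits (log2 fold changes between −0.91 and −1.15). These were the 3 calls among 29 cytokine, chemokine and prostanoid genes, whose median was 0.17. Of 29 genes around NF-kB and STAT3, 3 rose: Cebpd, Il4ra, a subunit of the IL-4 receptor (1.54), and Nfkbia, the inhibitor IκBα (1.197). Il4ra lost its call without untreated replicate 2 or 3 (1.21 and 1.40) or 6 h replicate 2 (1.52), and Nfkbia without untreated replicate 1 or 3 (1.08 and 0.97) or 6 h replicate 2 or 3 (1.14 and 1.15). Of 27 genes of angiotensin, endothelin, nitric oxide and G protein signalling, Ece1, the endothelin-converting enzyme (0.79), and Nos3, the endothelial nitric oxide synthase (1.12), rose and Rgs4 fell. Ece1 lost its call in 4 of the 6 fits, with log2 fold changes from 0.64 to 0.84, and Nos3 in 5 (1.03 to 1.14).

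Calls in the remaining lists were few. Over all genes tested 1.5% were called higher and 0.846% lower, so a list with 1 or 2 calls is not read as a list result. Errfi1 was the only 1 of 29 MAP kinase phosphatase, Sprouty and EGF family genes to rise. Without untreated replicate 3 or 6 h replicate 2 it was not called (1.23 and 1.40). In the TGF-β and BMP list, Id3 (1.30) and Id1 (1.47), inhibitors of helix-loop-helix factors, rose, 2 of 34 members, and both calls were lost without untreated replicate 3 (1.28 and 1.07) or 6 h replicate 2 (1.27 and 1.38). Gadd45g, a stress sensor (1.95), was the call among 19 growth arrest genes and was kept in 2 of the 6 fits. Ucp2, a mitochondrial carrier, had a signal of 26.4, 18.2 and 17.9 untreated and 57.8, 60.5 and 55.7 at 6 h (log2 fold change 1.48) and was the call among 28 genes of fatty acid oxidation, whose median was −0.10. Without untreated replicate 2 the median of that list was −0.72 and 3 members were called lower, and without untreated replicate 1 the median was 0.15. Exons of Ucp2 overlap Dnajb13 on the opposite strand. Of 80 cytosolic ribosomal protein genes, 2 rose, Rpl27 (1.39) and Rps26 (0.84), a count near the share of all genes called higher. The list median was 0.19. Rps26 was called in none of the 6 fits, and Rpl27 lost its call without 6 h replicate 2 (1.34) and also without 6 h replicate 3. No call by limma was made among 74 oxidative phosphorylation subunits (median −0.30, 58 negative values, 18 lower at an unadjusted p under 0.05, 4 lower by DESeq2 and none by edgeR). In the limma fits 9 of them were lower without untreated replicate 2 (median −0.56), 3 with quantile normalization and 2 with the replicate block, and the median was −0.14 without untreated replicate 1. Likewise none was made among 28 cell cycle genes, 21 of glycolysis, 30 of ribosome biogenesis or 20 of the unfolded protein response. At an unadjusted p under 0.05 these lists held 5, 4, 3 and 0 genes, edgeR called none of them and DESeq2 1, 1, 1 and 0. Limma called 1 glycolysis gene lower without untreated replicate 2.

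Fewer genes fell than rose, and those measured at higher signal are described first. Lrrc17, a secreted leucine-rich repeat protein, had a signal of 275, 340 and 377 untreated and 75.8, 48.8 and 44.2 at 6 h. It fell 5.95-fold (log2 fold change −2.57 ± 0.34 SE, adjusted p = 1.63e-04, limma). Rgs4, a GTPase-activating protein that shortens signalling by Gq and Gi, had a signal of 120, 146 and 105 untreated and 42.0, 28.0 and 27.2 at 6 h. It fell 3.81-fold (log2 fold change −1.93 ± 0.21 SE, adjusted p = 1.37e-05, limma). Cacna1c, the pore subunit of the L-type calcium channel Cav1.2, had a signal of 83.8, 97.9 and 90.6 untreated and 44.5, 37.5 and 27.2 at 6 h. It fell 2.52-fold (log2 fold change −1.33 ± 0.17 SE, adjusted p = 1.63e-04, limma). In all of these the groups were far apart, and the calls were made in all 16 alternatives. An exon of Lrrc17 overlaps Fbxl13 on the opposite strand by 101 bases.

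Other falls at moderate signal were singled out after their values were seen. Angpt2, an antagonist ligand of the Tie2 receptor, had a signal of 94.4, 114.4 and 148 untreated and 52.6, 27.0 and 36.6 at 6 h (log2 fold change −1.63 ± 0.27 SE, adjusted p = 0.00151, limma). Nrep, a neuronal regeneration-related protein that is also expressed in smooth muscle and fibroblasts, had a signal of 54.3, 60.9 and 67.7 untreated and 20.6, 10.96 and 16.5 at 6 h (log2 fold change −1.93). Unc5c, a netrin receptor, went from 47.4, 66.0 and 47.0 to 23.3, 14.7 and 9.89 (log2 fold change −1.78). These genes were called in all 16 alternatives. Nr3c2, the mineralocorticoid receptor, had a signal of 17.4, 20.03 and 19.4 untreated and 9.32, 5.09 and 3.64 at 6 h (log2 fold change −1.67), and was called in 3 of the 6 fits that left out a library.

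The other large falls were in genes at low signal. Mmd2, Slc35g1, Irs3, Map2k6, Cstad, Ky, Tnfrsf22 and Lmntd1, which belong to the 10 largest falls, had log2 fold changes from −2.45 to −3.17. Their untreated signals ranged from 3.03 to 22.8, and 6 h replicate 3 was at 1.56 or below for all of them. Irs3 is an insulin receptor substrate, Map2k6 a kinase that activates p38, and Tnfrsf22 a decoy receptor with a close paralog, Tnfrsf23. Leaving out a library removed the calls of 7 of these 8 genes at least once, Cstad excepted. Without untreated replicate 3 Mmd2 was at −2.80 and Map2k6 at −2.35, and without 6 h replicate 2 Slc35g1 was at −2.65, Map2k6 at −2.11, Tnfrsf22 at −2.03 and Lmntd1 at −1.73. For Ky the value without 6 h replicate 3 was −1.66. Slc8a1, the sodium-calcium exchanger, was a further low-level call (log2 fold change −2.42), with a signal of 6.35, 3.96 and 3.93 untreated and 1.81, 0.07 and 0.17 at 6 h. It was kept in 2 of the 6 fits. The 2 falls in the calcium and potassium channel list of 29 were Cacna1c and Slc8a1, beside 0.846% of all genes called lower. Its 2 rises, beside 1.5% of all genes called higher, were Stim1, the calcium sensor of the endoplasmic reticulum (0.66), and Trpv4, a cation channel (1.89). Stim1 was not called without untreated replicate 3 (0.64) or 6 h replicate 2 (0.66), and Trpv4 not in 4 of the 6 fits (1.68 to 1.91). Idi1, of isoprenoid synthesis, was the only 1 of 24 cholesterol genes to be called (log2 fold change −1.33). It lost the call without untreated replicate 1 (−0.98) or 6 h replicate 2 or 3 (−1.33 and −1.11).

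None of the 14 genes of the calcineurin and NFAT list was called by limma, edgeR or DESeq2 at 6 h in SM-Cn-/- aortas, and 3 were higher and 1 lower at an unadjusted p under 0.05. Limma called 1 lower without 6 h replicate 2. The catalytic subunit genes Ppp3ca, Ppp3cb and Ppp3cc had log2 fold changes of −0.17, −0.44 and 0.20, and Ppp3r1 −0.28 ± 0.33 (SE; adjusted p = 0.723, limma). Rcan1, a calcineurin inhibitor whose shorter transcript is a standard target of NFAT, had a signal of 38.3, 36.1 and 30.4 untreated and 35.2, 28.6 and 12.7 at 6 h (log2 fold change −0.56 ± 0.33 SE, adjusted p = 0.404, limma). The other genes that were to be named whatever their values were also not called: Ier3, a stress-response gene (0.86, adjusted p = 0.102, limma), Gja1, connexin 43 (−0.46, adjusted p = 0.285, limma), and Ptgs2, cyclooxygenase 2 (0.13, adjusted p = 0.932, limma).

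The same contrast in Cn-Ctl aortas shares no library with the SM-Cn-/- contrast, but its untreated group holds only 2 libraries. In Cn-Ctl, 572 genes (3.97%) were called at 6 h, 392 higher and 180 lower, and 415 (2.88%) changed more than 2-fold. The split under quantile normalization was 344 higher and 266 lower. A total of 135 genes were called in both genotypes, all in the same direction (104 higher and 31 lower), which is 39.9% of the SM-Cn-/- calls and 23.6% of the Cn-Ctl calls. Of the 216 genes called higher in SM-Cn-/-, 213 had a positive log2 fold change in Cn-Ctl, with a median of 0.95, and of the 122 called lower, 109 were negative, with a median of −0.73. The genes called in Cn-Ctl had smaller values in SM-Cn-/-. For the 392 higher genes the median fold change on the log2 scale was 1.38 for Cn-Ctl beside 0.69 for SM-Cn-/-, and for the 180 lower genes it was −1.17 beside −0.51. The choice by the Cn-Ctl values favours larger values in that genotype.

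The difference between the genotypes was tested by an interaction term. It was called for 9 genes (0.0624%), all with a smaller or more negative change in SM-Cn-/-, and 873 genes had an unadjusted p under 0.05. Over all genes 51.3% of the differences were negative. Among the largest differences were those of Fosb (−4.74 on the log2 scale), Cd44 (−2.58), Atf3 (−2.57) and Cryab (−2.36). Fosb, an AP-1 subunit, had a signal of 13.2, 13.1 and 16.5 in untreated and 10.4, 3.23 and 3.99 in 6 h SM-Cn-/- libraries, and 9.54 and 16.5 in untreated and 80.4, 146 and 208 in 6 h Cn-Ctl libraries. Cryab, the small heat shock protein αB-crystallin, had 122, 118 and 101 untreated and 222, 168 and 173 at 6 h in SM-Cn-/-, and 161 and 164 untreated and 835, 1658 and 1876 at 6 h in Cn-Ctl. Rgs4 was the only 1 of the 9 that had been called in SM-Cn-/-. In Cn-Ctl its signal was 114 and 179 untreated and 125, 141 and 116 at 6 h, so that the groups overlapped, and the difference was −1.76 ± 0.31 (SE; adjusted p = 0.0278, limma). No gene was called with a larger rise in SM-Cn-/-. The number of calls depended on single libraries: it was 0 without untreated replicate 1 or 6 h replicate 3 of SM-Cn-/- or untreated replicate 2 of Cn-Ctl, 4 without untreated replicate 2 or 6 h replicate 2 of SM-Cn-/-, 2 without untreated replicate 3 or 6 h replicate 2 or 3 of Cn-Ctl, and 19 without 6 h replicate 1 of SM-Cn-/-. Without either untreated Cn-Ctl replicate that group is a single library, which the fit assumes to vary like the libraries of the other groups.

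**Figure D4:**
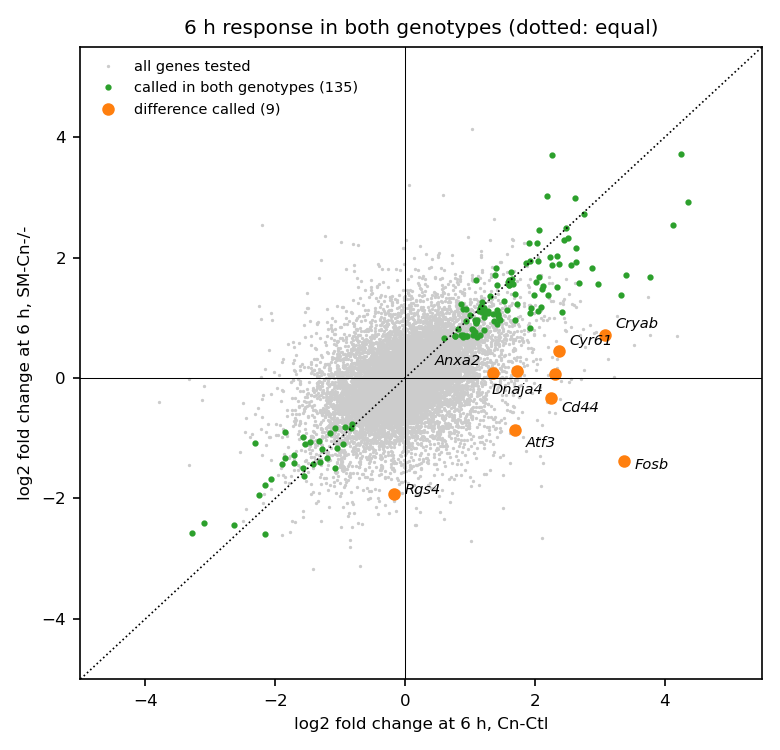
Log2 fold change at 6 h in Cn-Ctl (horizontal) against that in SM-Cn-/- (vertical) for all genes tested, with the 135 genes called in both in green and the 9 genes whose difference was called in orange. The green points lie on both sides of the dotted line of equal change, and all 9 orange points lie below it, 8 of them at positive values for Cn-Ctl and Rgs4 at −0.17.

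Gene lists differed in how the genotypes compared. Over all genes tested, 2.34% were called in SM-Cn-/-, 3.97% in Cn-Ctl and 0.0624% for the difference, and 51.3% of the differences were negative. The glucocorticoid list had 15 called genes for SM-Cn-/- and 12 for Cn-Ctl, with medians of 1.26 and 1.42. No member's difference was called, and 11 of the 27 differences were negative, with a median of 0.06. The immediate early list had 1 call for SM-Cn-/- and 22 for Cn-Ctl, with medians of 0.54 and 1.42, and 27 of the 29 differences were negative, with a median of −1.02. The difference was called for 2 members, Fosb and Atf3. Myc, an example outside the naming rule, had a signal of 2.61, 8.04 and 3.03 untreated and 6.19, 8.67 and 4.34 at 6 h in SM-Cn-/-. In Cn-Ctl its signal was 1.68 and 1.19 untreated and 11.8, 20.5 and 40.9 at 6 h. The difference of −2.97 was not called (adjusted p = 0.255, limma). Chaperones had 4 calls and 11 calls, with medians of 0.27 and 1.02, and 18 of 20 differences were negative, with Cryab called. Hspb1 rose in both genotypes, with log2 fold changes of 2.93 and 4.36, and the difference of −1.43 was not called (adjusted p = 0.545, limma).

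In Cn-Ctl 12 of 26 collagen genes (median 0.74) and 10 of 30 matricellular genes (median 0.80) were called, all higher, beside 2.72% of all genes called higher. The difference between genotypes was called for 0 of the 26 and 2 of the 30, beside 0.0624% of all genes, with median differences of −0.38 and −0.67. Among the 30 genes that the study ranked highest in a hypertension score, a list that was drawn from these samples and is no independent evidence, 1 (Hspa8) was called in SM-Cn-/- and 22 in Cn-Ctl. All 30 differences were negative and 3 of them were called, beside 51.3% negative and 0.0624% called over all genes. Rcan1 had a log2 fold change of 1.80 in Cn-Ctl, and its difference of −2.36 was not called (adjusted p = 0.0889, limma). Ptgs2 had 2.76 in Cn-Ctl and a difference of −2.62 (adjusted p = 0.369, limma). At the other end, Lrrc17, Cacna1c, Angpt2, Nrep and Unc5c fell in both genotypes, with Cn-Ctl log2 fold changes of −3.28, −1.20, −1.56, −2.25 and −2.16. Atoh8, a helix-loop-helix factor singled out after its values were seen, had a signal of 16.2, 25.4 and 23.7 untreated and 60.8, 67.4 and 106.7 at 6 h in SM-Cn-/-, and 49.6 and 34.8 untreated and 36.0, 36.8 and 40.3 at 6 h in Cn-Ctl. Its difference of 1.95 was not called (adjusted p = 0.18, limma).

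The 6 h libraries were then set beside those of SM-Cn-/- mice at 2 h and 24 h of infusion. Contrasts of 2 h and 24 h with the untreated group share the 3 untreated libraries with the 6 h contrast, so their values are given side by side only. The 216 genes higher at 6 h had a median log2 fold change of 0.68 at 2 h and 0.71 at 24 h, and 63 and 46 of them were called higher at those times, where 1.13% and 0.79% of all genes were called in either direction, and 0.984% and 0.638% higher. The 122 genes lower at 6 h had medians of −0.38 and −0.46, and 3 and 5 of them were called lower, beside 0.146% and 0.153% of all genes. Mt2 had log2 fold changes of 2.43, 3.72 and 2.68 at 2, 6 and 24 h, Fkbp5 3.70, 3.03 and 2.22, Tsc22d3 2.04, 2.24 and 0.73, and Hspb1 1.47, 2.93 and 0.72. Rgs4 had −0.56, −1.93 and −0.56, Cacna1c 0.29, −1.33 and −0.45, and Nrep −0.50, −1.93 and −2.02.

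**Figure D5:**
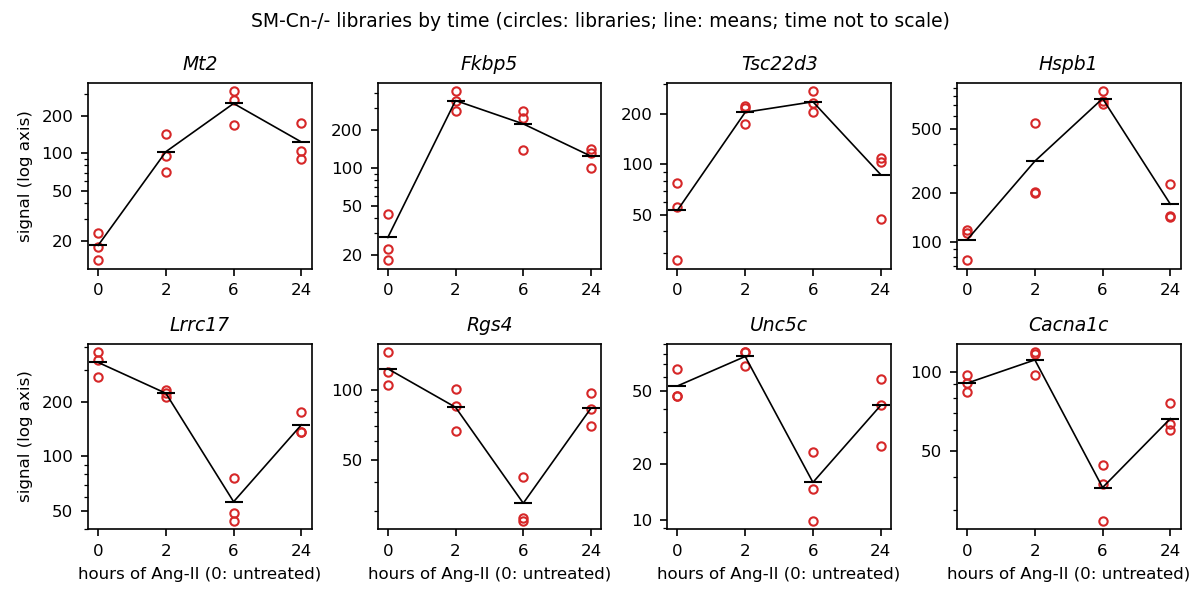
Signal (log axis) of 8 genes in the 3 SM-Cn-/- libraries of each time, untreated (0) and 2, 6 and 24 h of Ang-II (time not to scale), with a line through the means. Fkbp5 is highest at 2 h and Mt2 and Hspb1 at 6 h, and the 4 genes of the lower row have their lowest libraries at 6 h.

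A direct contrast of 6 h with 2 h in SM-Cn-/- shares the 6 h libraries and called 203 genes (1.41%), 105 higher and 98 lower. Of the genes called higher at 6 h against untreated, 31 were also higher than at 2 h and 1 was lower, and of those called lower, 32 were also lower than at 2 h. The largest falls from 2 h to 6 h were in Unc5c (−2.32), the potassium channel gene Kcnq5 (−2.16), the G protein subunit gene Gng7 (−2.11), Hrasls (−2.08) and the calcium sensor gene Ncald (−2.07). Cacna1c fell by 1.62 on the log2 scale (adjusted p = 7.48e-05, limma). The largest rises were in Gm44503 (3.28), Epha5 (2.78), Pla2g4b (2.76), Tmem200b (2.32) and the secreted glycoprotein gene Lrg1 (2.27). Epha5, Pla2g4b, Tmem200b and Lrg1 were not called against untreated, where their log2 fold changes were 1.15, 1.18, 1.03 and 0.72. Exons of Pla2g4b overlap Gm28042 on the same strand by 1636 bases. This contrast depended strongly on single libraries: 1125 genes were called without 6 h replicate 1, 705 without 2 h replicate 3, and 10, 6, 9 and 12 without 2 h replicate 1 or 2 or 6 h replicate 2 or 3.

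The make-up of the tissue moved with the groups in some markers. In whole tissue, fewer cells of a type and less RNA per cell cannot be told apart. Adventitial fibroblast markers summed to 4132, 3027 and 2645 untreated and 6010.0, 5385 and 3879 at 6 h. Of these 12 markers 2 were called higher, Pi16 (0.97) and Serpinf1 (1.14), beside 1.5% of all genes. Pi16 lost its call without untreated replicate 3 or 6 h replicate 2 or 3 (0.84, 0.88 and 0.97), and Serpinf1 kept it in 2 of the 6 fits. Endothelial markers summed to 909, 670 and 714 untreated and 1525, 905 and 752 at 6 h, and Nos3 was the only 1 of 12 called. The collagen, Ptgis and Nos3 values stand beside these sums, and the part of cell make-up in them was not tested. Macrophage markers summed to 354, 212 and 223 untreated and 321, 427 and 412 at 6 h, and 0 of 12 were called by limma (4 higher at an unadjusted p under 0.05, 1 by edgeR, 3 by DESeq2). Adipocyte markers summed to 4322, 946 and 3358 untreated and 1677, 1558 and 2925 at 6 h, 10 of 12 were negative and 0 were called by limma, edgeR or DESeq2 (3 lower at an unadjusted p under 0.05). Adrb3, an adipocyte adrenergic receptor, and Hcar1, an adipocyte lactate receptor, both named after their values were seen, fell by 2.24 and 2.09 on the log2 scale. Their signals were 59.5, 22.6 and 53.1 and 18.4, 6.76 and 19.7 untreated, with the lowest in replicate 2 as for the adipocyte sum, and 5.07, 11.7 and 9.89 and 1.94, 4.80 and 2.26 at 6 h. Striated muscle markers summed to 89.7, 141 and 74.6 untreated and 65.5, 179 and 208 at 6 h, and blood markers to 466, 82.8 and 242 and to 291, 391 and 653. Neutrophil and lymphocyte markers were at low signal, with sums of at most 18.3 and 20.8. The neutrophil sums were 6.72, 8.42 and 9.43 untreated and 13.1, 18.3 and 12.1 at 6 h, so every 6 h library lay above every untreated one. No member of the blood, neutrophil, lymphocyte, or Schwann cell and neuron lists was called by limma, edgeR or DESeq2 (at an unadjusted p under 0.05, 1 blood and 1 neutrophil gene). Schwann cell and neuron markers summed to 757, 1014 and 1023 untreated and 602, 757 and 751 at 6 h. For striated muscle, limma and edgeR called none of 12 and DESeq2 1, with 2 at an unadjusted p under 0.05.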

How the data were processed

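Aortic RNA was primed with oligo-dT and sequenced, and the deposited values came from reads that, per the submitters' processing notes, were handled with Bowtie 0.12.7, RSEM 1.16 and GRCm38. Whether reads were counted by strand is not given in the sources used here. The deposited signal is a normalised count made by the authors, (reads + 0.5) per M (megareads) of a scaled library size, and all values could be turned back into whole reads (tolerance 1e-06). The authors left out 1 untreated Cn-Ctl replicate. Log2(signal + 0.5) of the 14424 protein-coding genes was fitted with limma 3.58.1 (trend, R 4.3.3) over all 22 libraries with a mean per group, and p-values were adjusted by Benjamini-Hochberg over all genes with a threshold of 0.05. Replicates are pools of 3 aortas. Alternatives were edgeR 4.0.16 and DESeq2 1.42.0 on the whole reads, other scalings (quantile, median-ratio, TMM), a pseudocount of 1, a minimum mean signal of 5, a minimum change of 2-fold, all 17402 genes listed, the compared groups alone, a replicate block, and leaving out each library. The limma and edgeR fits were also run on simulated reads drawn independently for each library. Such reads carry no effect shared by the genes of a library, so they cannot show how the calls depend on single libraries. The cyclosporin experiment of the series was not used here.

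The members and lists were chosen with earlier results of these data known. Genes named were the 15 largest rises and 10 largest falls with adjusted p under 0.05, a mean signal of at least 5 in a group and no overlap between groups, up to 4 called members per list, up to 5 genes per direction for the difference between genotypes and for 6 h against 2 h, and 9 genes fixed by name. Genes outside this rule are marked as such, apart from Acta2, Myh11, Fos and Egr1, which were named as examples. For 2 further genes under this rule no value is given. Figures were drawn with matplotlib 3.10.9 in python 3.11.15.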

Additional observations from a re-analysis of the deposited data

Results flagged for a closer look

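For 9 genes the change at 6 h differed between SM-Cn-/- and Cn-Ctl by the interaction term in limma, and the differences of 8 of them are given here on the log2 scale, SM-Cn-/- minus Cn-Ctl. The AP-1 and stress transcription factors Fosb and Atf3 differed by −4.74 and −2.57. The hyaluronan receptor Cd44 differed by −2.58 and the small heat shock protein Cryab by −2.36. The matricellular protein Cyr61 differed by −1.93, with 315, 308 and 227 untreated and 431, 460 and 279 at 6 h in SM-Cn-/- and 1368, 1255 and 1179 at 6 h in Cn-Ctl. The co-chaperone Dnaja4 differed by −1.61 and the calcium-dependent membrane protein Anxa2 by −1.28. Their log2 fold changes in SM-Cn-/- were 0.11 and 0.08, and neither was called. Rgs4 differed by −1.76 and was the only gene among them whose fall in SM-Cn-/- was called. Fosb, Atf3 and Cd44 also had negative log2 fold changes in SM-Cn-/- (−1.37, −0.87 and −0.33), which were not called. Cyr61, Dnaja4 and Anxa2 are named because their difference was called, outside the naming rule. Exons of Cryab overlap those of Hspb2 on the opposite strand.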

How the results depend on the processing

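The count of genes called at 6 h in SM-Cn-/- was 338. It was 119 in a fit to the 2 groups alone and 632 with DESeq2, and 112 to 449 when a library was left out. In Cn-Ctl the count of 572 became 131 in the fit to its own groups and 947 with DESeq2, and 175 to 628 when a library was left out, where leaving out an untreated library leaves 1, assumed to vary like the other groups. Quantile normalization moved the Cn-Ctl split to 344 higher and 266 lower. The 9 differences between genotypes became 1 in the fit to the compared groups, 5 with edgeR and 42 with DESeq2, and 0 to 19 when a library was left out. For 6 h against 2 h in SM-Cn-/-, 203 became 15, 97 and 684 in these fits, and 6 to 1125. The counts for 2 h (163) and 24 h (114) against untreated became 392 and 316 with DESeq2, and 50 to 221 and 28 to 105 when a library was left out. The causes were not tested. Among values of single named genes, 992 kept their direction and side of the threshold, 206 kept the direction but were no longer called, 1 (Ier3) became called and 0 reversed. The replicate numbers are not said to mark shared animals. Deviations of same-numbered 6 h and untreated SM-Cn-/- libraries correlated at 0.139, 0.0545 and 0.0698, and each 6 h library correlated best with the untreated library of its own number. That is a hint from the data and not from the design, and in other SM-Cn-/- contrasts it held for some libraries only. The 6 h replicate 2 correlated at −0.0188 with 2 h replicate 2 and 0.0923 with 2 h replicate 3. For 24 h replicate 2 the values were −0.157 with untreated replicate 2 and 0.154 with untreated replicate 1. With the replicate number as a block, 445 genes were called at 6 h in SM-Cn-/-, 679 in Cn-Ctl, 511 for 6 h against 2 h and 275 for 2 h against untreated. At 2.73 M reads in 6 h replicate 3, genes of low signal were measured by few reads.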

Other observations

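The table also lists 2978 genes that are not annotated as protein-coding, which were fitted together with the others (352 of 17402 called). At 6 h in SM-Cn-/- 25 of them were higher and 12 lower. The imprinted long RNA Rian had a signal of 57.4, 78.7 and 61.4 untreated and 147.6, 143.4 and 146.3 at 6 h (log2 fold change 1.15, adjusted p = 0.00403, limma). Mir22hg, the host transcript of a microRNA, had 62.9, 98.1 and 79.2 untreated and 135.5, 148.5 and 156.0 at 6 h (log2 fold change 0.89, adjusted p = 0.00518, limma). Airn, an antisense RNA of the imprinted Igf2r region, was lower by 1.52 on the log2 scale. Gm45774, whose exon overlaps that of Mt2, was at 0 reads in the untreated libraries and at 5.32, 3.80 and 6.77 at 6 h, and its reads cannot be told apart from those of Mt2 without strand. The processed pseudogene Rpl15-ps3 had 28.7, 10.8 and 20.8 untreated and 0 reads in every 6 h library, and its reads can be shared with the parent gene. These genes were chosen after their values were seen.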
